A study of Homo sapiens with 9 samples.

Results

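Clade B serpins were followed in THP-1, a human monocytic leukaemia cell line, after incubation with ectosomes of the hepatoma line Huh7. Ectosomes are vesicles pinched off from the cell surface. RNA-seq of 9 libraries fell into 3 groups of 3: cells given ectosomes labelled PKM2_KD (PKM2-knockdown ectosomes), cells given ectosomes labelled Scramble (scramble ectosomes, from a scramble shRNA), and cells without ectosomes (control). PKM2 is a form of pyruvate kinase encoded by PKM; the labels give the shRNA of each sample without naming the cells that carried it, and it is read here as that of the Huh7 cells that shed the ectosomes. How the ectosomes were made, how much was given and for how long is not stated in the labels. The clade B genes are SERPINB1, SERPINB2, SERPINB6, SERPINB8, SERPINB9 and SERPINB10, which are 6 of the 30000 rows of the table and 6 of its 25 serpin rows. They were chosen by symbol, with earlier results of these data known. The low levels of SERPINB2 and SERPINB10 in cells given scramble ectosomes were among those results, so for this pair the differences from control are given as a description, with no test.

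Serpins inhibit proteases by offering a reactive centre loop as bait: the protease cuts the loop and is trapped, and the serpin is used up. Clade B members mostly lack a classical secretion signal and act inside the cell, where in myeloid cells they are known to guard the cytosol against proteases that leak from granules. SERPINB1 inhibits the granule proteases neutrophil elastase, cathepsin G and proteinase 3. SERPINB9 inhibits granzyme B, and SERPINB6 inhibits cathepsin G. SERPINB2 is plasminogen activator inhibitor type 2, an inhibitor of urokinase. SERPINB8 inhibits furin, and SERPINB10, or bomapin, is a serpin of blood-forming cells.

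The libraries held 17744587 to 23864381 counts. Levels are CPM, counts scaled to library size by TMM, and ± gives the SD over the 3 libraries of a group (n = 3). Control replicate 3 stood apart: over all rows tested, its counts differed from those of the other controls by a chi-square of 43.6 and 46.4 per degree of freedom, against 2.53 to 7.01 for the 7 other pairs within a group. Where leaving it out made or ended a member's call, turned its direction or moved its fold change by over 1.5 times, the value without it is given too. PKM itself had 2181, 2304 and 2454 CPM in cells given PKM2-knockdown ectosomes, 3376, 3553 and 3573 CPM in cells given scramble ectosomes, and 428, 734 and 789 CPM in control cells; PKM reads of the recipient cells and any from the donor cells cannot be told apart, so these values do not check a knockdown in the donor cells. All 9 monocytic markers had a row, and they summed to 1103 to 1267 CPM with PKM2-knockdown ectosomes, 639 to 697 CPM with scramble ectosomes, and 584 to 749 CPM in control cells. With PKM2-knockdown over scramble ectosomes 6 rose, 0 fell and 3 did not pass in edgeR's quasi-likelihood test (adjusted p of 0.05), with a median log2 fold change of 1.18 beside 0.03 for all rows tested. Over control 4 rose and 3 fell with PKM2-knockdown ectosomes, with CD14 18.7-fold higher and LYZ 5.08-fold lower, and 2 rose and 5 fell with scramble ectosomes, with LYZ 11.5-fold lower. Over all rows tested, 31.4% rose and 30.3% fell between the ectosomes. Against control 27% rose and 26.7% fell with PKM2-knockdown ectosomes, and 34.6% rose and 33.2% fell with scramble ectosomes. CD68 stayed at or under 0.785 CPM in every library. Hepatoma markers had 5 rows, which summed to 40.5 to 47.0 CPM with PKM2-knockdown ectosomes, 5.75 to 6.63 CPM with scramble ectosomes, and 2.37 to 6.93 CPM in control cells. Most of the first sum was SERPINA1. ALB had 27 counts in all with PKM2-knockdown ectosomes, 7 with scramble ectosomes and 7 in control cells, and TTR had 0, 7 and 0 in those groups. APOA2 had 292, 142 and 109 counts in the same groups, while APOA1 went the other way with 5, 16 and 40. Markers of T, B, epithelial and fibroblast cells had 6 rows, which summed to 13.3 to 17.9 CPM with PKM2-knockdown ectosomes, 9.12 to 9.69 CPM with scramble ectosomes and 9.99 to 12.1 CPM in control cells. The part of these markers in the results was not tested. The labels do not say that replicates were separate cultures, so a p-value here reflects the scatter of these libraries, which may be technical. In bulk RNA, fewer cells that make a transcript and less transcript per cell cannot be told apart.

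The 6 genes lie in a pair of clusters. On chromosome 6, all on the minus strand of GRCh38, are SERPINB1 at chr6:2832332-2842006, SERPINB9 at chr6:2887266-2903280 and SERPINB6 at chr6:2948159-2972165. On chromosome 18, all on the plus strand, are SERPINB2 at chr18:63871692-63903890, SERPINB10 at chr18:63897174-63936111 and SERPINB8 at chr18:63969925-64019779. RefSeq promoter windows matched 5 of the 6 genes, SERPINB10 being the other. They are shown for a pair of genes from each cluster. On chromosome 6 the pair is SERPINB1 and SERPINB9, which, like SERPINB6, had their highest means with PKM2-knockdown ectosomes. On chromosome 18 it is SERPINB2 and SERPINB8, which were below control there. Each window holds the 250 bases before the RefSeq start (GRCh38.p14), 5′ to 3′ on the strand of the gene. Capitals mark matches on either strand to an AP-1-type motif (TGA, any base, then TCA), a TATA box (TATAAA) or a GC box (GGGCGG); neighbouring matches that overlap appear as 1 run of capitals.
SERPINB1 chr6:2841864-2842113, minus strand: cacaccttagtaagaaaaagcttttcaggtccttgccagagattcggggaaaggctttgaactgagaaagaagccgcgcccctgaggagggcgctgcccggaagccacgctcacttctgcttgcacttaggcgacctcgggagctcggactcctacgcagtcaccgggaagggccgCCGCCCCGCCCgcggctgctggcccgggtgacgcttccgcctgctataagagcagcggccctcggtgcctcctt
SERPINB9 chr6:2903310-2903559, minus strand: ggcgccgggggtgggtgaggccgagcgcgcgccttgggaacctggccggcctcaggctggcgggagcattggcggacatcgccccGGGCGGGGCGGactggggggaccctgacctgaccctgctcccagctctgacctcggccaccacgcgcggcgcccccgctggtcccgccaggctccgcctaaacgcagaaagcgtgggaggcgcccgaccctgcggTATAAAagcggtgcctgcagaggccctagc
SERPINB2 chr18:63887455-63887704, plus strand: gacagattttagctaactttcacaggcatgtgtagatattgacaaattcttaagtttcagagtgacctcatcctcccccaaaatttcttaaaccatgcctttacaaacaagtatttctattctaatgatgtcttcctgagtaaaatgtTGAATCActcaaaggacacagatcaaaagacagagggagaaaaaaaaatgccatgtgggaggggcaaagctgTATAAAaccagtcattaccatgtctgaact
SERPINB8 chr18:63969831-63970080, plus strand: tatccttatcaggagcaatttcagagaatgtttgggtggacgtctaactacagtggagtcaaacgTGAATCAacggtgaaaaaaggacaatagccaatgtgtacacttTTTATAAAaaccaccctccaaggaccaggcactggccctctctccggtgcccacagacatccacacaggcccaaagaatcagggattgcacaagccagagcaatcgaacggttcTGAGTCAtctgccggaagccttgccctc

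Among the windows shown, AP-1-type letters were in both of chromosome 18 and in neither of chromosome 6. They began 102 bases before the start of SERPINB2, and 185 and 28 bases before the start of SERPINB8. Of all 35116 RefSeq windows of this length, 6.57% hold the motif. SERPINB6, not shown, had 4 windows, all without it. Another clade B gene of chromosome 18, SERPINB7, had 3 windows, with 0 matches in window 1 and 2 each in windows 2 and 3. A TATA box began 30 bases before the start in both SERPINB2 and SERPINB9, and 142 and 140 bases before the start in SERPINB8, as overlapping matches; 10.7% of windows hold one. GC boxes were in SERPINB1 (74 and 69 bases before the start) and SERPINB9 (165 and 160), and are in 42.6% of windows. SERPINB6 had GC boxes in windows 1, 2 and 3 but not in window 4, which was 47.6% G or C, and had no TATA box. The windows of SERPINB1 and SERPINB9 were 63.6% and 74.4% G or C, and those of SERPINB2 and SERPINB8 were 37.2% and 49.2%. Of other motifs searched on both strands, a STAT-type TTCNNNGAA (6.57% of windows) was in SERPINB1 and SERPINB8, and a C/EBP-type TTGCNNAA (9.05%) was in SERPINB8. The ETS-type GAGGAA, in 23.6% of windows, was in none of the 4 windows shown. These matches describe the letters and show no binding.

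Ranked by level per kilobase of exon, SERPINB1 had the highest mean of the 6 genes in each group, at 106 ± 0.375 CPM per kb in cells given PKM2-knockdown ectosomes, 38.0 ± 2.68 CPM per kb in cells given scramble ectosomes and 36.7 ± 17.8 CPM per kb in control cells. In cells given PKM2-knockdown ectosomes the order below it was SERPINB6 (8.76 ± 0.213 CPM per kb), SERPINB8 (6.85 ± 0.272), SERPINB9 (1.61 ± 0.179), and then SERPINB10 (0.322 ± 0.0371) and SERPINB2 (0.304 ± 0.0489), which lay within their spread. With scramble ectosomes SERPINB8 came next after SERPINB1 (16.2 ± 0.307 CPM per kb), then SERPINB6 (7.64 ± 0.261), SERPINB9 (0.499 ± 0.112), SERPINB2 (0.203 ± 0.0599) and SERPINB10 (0.0731 ± 0.0411). In control cells the highest means were SERPINB1, SERPINB2 (30.4 ± 38.1 CPM per kb) and SERPINB8 (18.6 ± 11.8). SERPINB10 (7.97 ± 9.04) and SERPINB6 (4.27 ± 0.435) followed, and SERPINB9 was the lowest at 0.0131 ± 0.0129 CPM per kb. In every control library SERPINB1 was above SERPINB8, and SERPINB8 was above SERPINB10 and SERPINB6. Replicate 3 alone put SERPINB2 above SERPINB1 and SERPINB8, and SERPINB10 above SERPINB6, so those orders are not settled. The order depends on the length used: the exons of SERPINB6 over all transcripts span 13.201 kb, for example, while its median coding transcript has 1.373 kb. Per kilobase of that transcript SERPINB1 still had the highest level with PKM2-knockdown ectosomes, at 125 ± 0.443 CPM per kb, before SERPINB6 (84.2 ± 2.05) and SERPINB8 (34.1 ± 1.35). With scramble ectosomes SERPINB8 (80.7 ± 1.53 CPM per kb) and SERPINB6 (73.4 ± 2.51) then came before SERPINB1 (44.9 ± 3.16). In control cells the means were highest for SERPINB2 (109.5 ± 137.2 CPM per kb) and SERPINB8 (92.5 ± 58.8), before SERPINB1 (43.3 ± 21) and SERPINB6 (41.1 ± 4.19). SERPINB8 was above SERPINB1 and SERPINB6 in every control library, while the order of SERPINB2, SERPINB1 and SERPINB6 differed between libraries. These medians are over annotated coding transcripts of 717 to 2155 bases for SERPINB2, 452 to 5620 for SERPINB6 and 564 to 3477 for SERPINB8. SERPINB1 had 1 coding transcript, of 2619 bases. A longer transcript gives a lower level per kilobase, and which transcripts were made was not tested. The order by this length is therefore not settled.

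**Figure D1:**
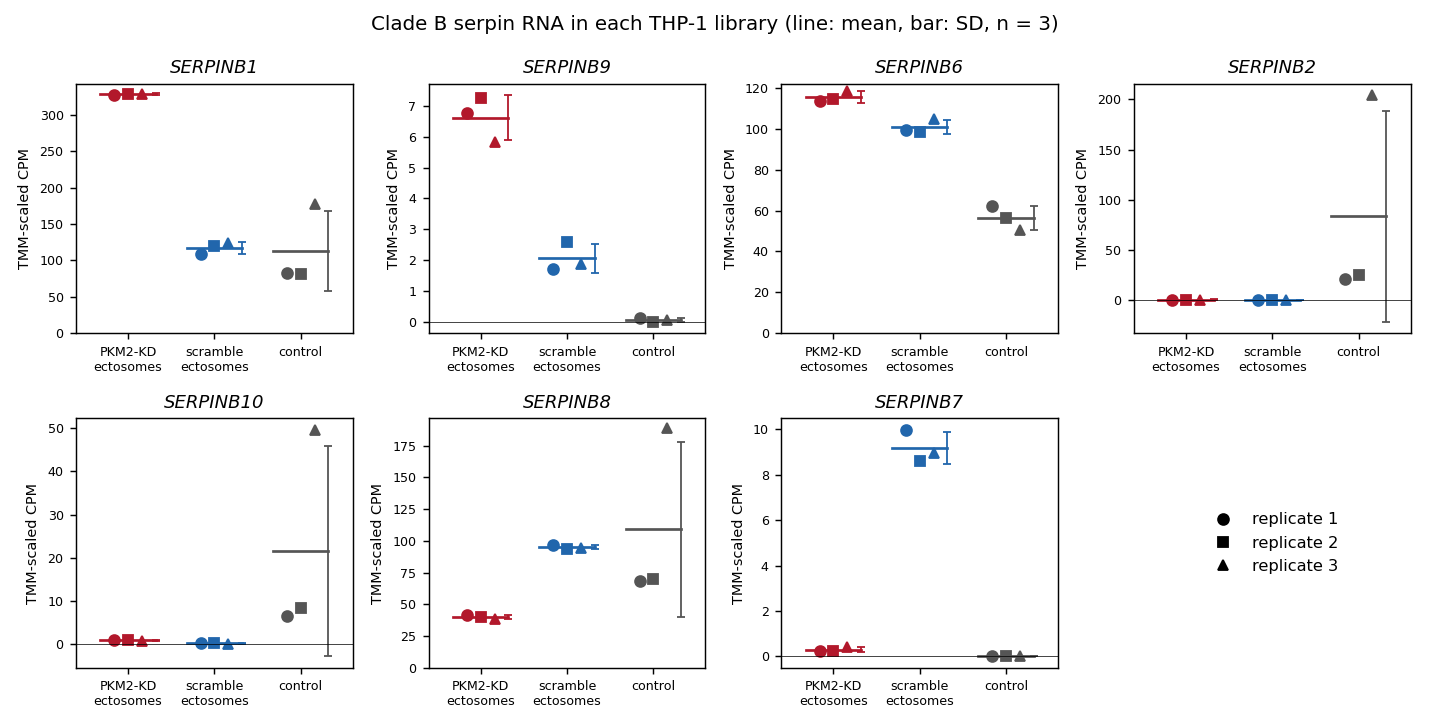
TMM-scaled CPM of the 6 clade B genes and of SERPINB7 in each library, with the groups on the horizontal axis and a vertical scale of its own for each gene; points are libraries, lines means and bars SDs (n = 3). Control replicate 3 (triangle) lies far above the other controls for SERPINB2, SERPINB10, SERPINB8 and SERPINB1, and SERPINB7 is high with scramble ectosomes.

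All 6 genes had enough counts to be tested. The spread of each gene was estimated over all 9 libraries, so the scatter of the controls enters the SE and p between the ectosomes too. Between PKM2-knockdown and scramble ectosomes, 2 rose (SERPINB1, SERPINB9), 1 fell (SERPINB8) and 3 did not pass an adjusted p of 0.05 in edgeR's quasi-likelihood test; of all 18437 rows tested, 31.4% were higher and 30.3% lower. This comparison shares the scramble libraries that had a part in the choice of SERPINB2 and SERPINB10. Against control, SERPINB1, SERPINB6 and SERPINB9 were higher and SERPINB8 lower with PKM2-knockdown ectosomes, over a background of 27% higher and 26.7% lower. With scramble ectosomes, SERPINB6 and SERPINB9 were higher than control, over a background of 34.6% higher and 33.2% lower. SERPINB1 and SERPINB8 did not pass there. SERPINB2 and SERPINB10 are left out of these calls, as they were chosen on such results. Nothing is read from the number of calls, and both comparisons use the same control libraries. The median log2 fold change of the 6 genes was 1.03 for PKM2-knockdown over scramble ectosomes, beside 0.03 for all rows tested. It includes SERPINB2 and SERPINB10, whose choice had drawn on the scramble libraries. Summed over the 6 genes, the level was 491 to 494 CPM with PKM2-knockdown ectosomes, 307 to 326 CPM with scramble ectosomes, and 240, 241 and 671 CPM in control cells, the last being replicate 3.

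**Figure D2:**
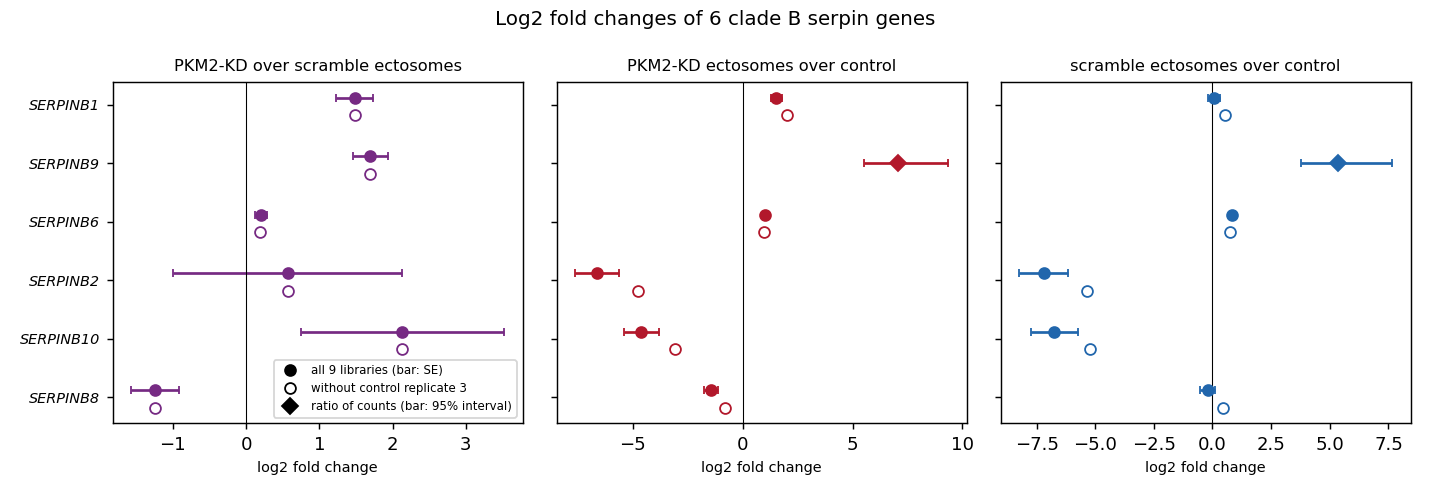
Log2 fold change of each gene (horizontal axis, each panel with its own scale) in the 3 comparisons, with all 9 libraries (filled, bar: SE) and without control replicate 3 (open); diamonds give SERPINB9 against control as a ratio of counts with its 95% interval. Leaving out that control moves SERPINB2 and SERPINB10 nearer to 0 against control and takes SERPINB8 with scramble ectosomes to the other side of 0. Nothing is read from the bars of SERPINB2 and SERPINB10 against control, as the pair was chosen on these data.

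SERPINB1, the elastase inhibitor, rose with PKM2-knockdown ectosomes over both other groups. It had 327, 329 and 329 CPM in the 3 libraries given PKM2-knockdown ectosomes, 108, 120 and 124 CPM in those given scramble ectosomes, and 80.9, 82.5 and 177 CPM in control cells. The libraries given PKM2-knockdown ectosomes lay above all 6 others, and those given scramble ectosomes overlapped the controls, as replicate 3 had 177 CPM. SERPINB1 rose 2.79-fold over scramble ectosomes (log2 1.48, SE 0.25, adjusted p = 4.29e-04, edgeR) and 2.90-fold over control (log2 1.53, SE 0.25, adjusted p = 4.39e-04). With scramble ectosomes the difference from control was 0.05 on the log2 scale (SE 0.25, adjusted p = 0.861). Without control replicate 3 that difference passed the test, at 1.44-fold (log2 0.52, adjusted p = 7.51e-07, edgeR); without control replicate 1 or 2, or with library totals in place of TMM, it fell on the other side of 0 (log2 -0.13, -0.14 and -0.14) and did not pass.

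SERPINB9, the granzyme B inhibitor, was nearly absent from control cells. It had 138, 155 and 111 counts in the PKM2-knockdown libraries 1 to 3 (6.62 ± 0.736 CPM), 38, 49 and 39 counts in the scramble libraries (2.05 ± 0.461 CPM), and 2, 0 and 1 counts in the controls (0.0539 ± 0.0533 CPM). No groups overlapped, and control replicate 3 was 1.04 times the mean of the other controls, at counts too low to set them apart. As a ratio of counts summed over each group and scaled to library size, SERPINB9 was 133-fold higher than control with PKM2-knockdown ectosomes (exact 95% interval 45.3 to 649, adjusted p = 4.64e-07) and 40.7-fold higher with scramble ectosomes (13.6 to 200.1, adjusted p = 3.61e-06). Between the 2 kinds of ectosomes it rose 3.23-fold with PKM2 knockdown (log2 1.69, SE 0.24, adjusted p = 1.21e-04, edgeR). These intervals cover counting error only. The fitted log2 fold change over control moved with the few control counts: with PKM2-knockdown ectosomes it was 6.88 with all libraries, 7.77 without control replicate 1 and 6.24 without control replicate 2, and with scramble ectosomes it was 5.19, 6.08 and 4.55 in the same settings. SERPINB9P1, a neighbouring row annotated as a lincRNA, had 31, 45 and 30 counts with PKM2-knockdown ectosomes, 10, 9 and 14 with scramble ectosomes, and 0, 1 and 1 in control cells. It rose 3.24-fold between the ectosomes (adjusted p = 6.70e-04), and reads shared by the pseudogene-derived row and SERPINB9 cannot be told apart.

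SERPINB6, the cathepsin G inhibitor, rose over control with both kinds of ectosomes. It had 114, 115 and 119 CPM with PKM2-knockdown ectosomes, 98.4, 99.4 and 105 CPM with scramble ectosomes, and 50.7, 56.3 and 62.2 CPM in control cells. The groups formed 3 separate steps with no overlap, and here control replicate 3 was the lowest control. SERPINB6 rose 2.05-fold over control with PKM2-knockdown ectosomes (log2 1.04, SE 0.08, adjusted p = 3.26e-06, edgeR) and 1.79-fold with scramble ectosomes (log2 0.84, SE 0.08, adjusted p = 6.40e-06). The step between the ectosomes, 1.15-fold (log2 0.20, SE 0.08), missed the threshold at an adjusted p of 0.0572 in edgeR. It passed without control replicate 3 (adjusted p = 0.00435), without control replicate 1 (0.0362), with only the 2 groups fitted (0.00138), with a stricter low-count filter (0.0348) and with library totals in place of TMM (0.00345).

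SERPINB2, the urokinase inhibitor, was the least even of the 6 genes within control cells. It had 19, 19 and 13 counts with PKM2-knockdown ectosomes (0.835 ± 0.134 CPM), 14, 7 and 14 counts with scramble ectosomes (0.557 ± 0.164 CPM), and 398, 581 and 3699 counts in control cells. In CPM the controls had 21.2, 25 and 204, so replicate 3 was 8.84 times the mean of the other 2. Every control lay above every library given ectosomes. The fitted difference from control was 98.6-fold lower with PKM2-knockdown ectosomes (log2 -6.62) and 146-fold lower with scramble ectosomes (log2 -7.19). Without control replicate 3 it was 27.5-fold lower with PKM2-knockdown ectosomes and 40.7-fold lower with scramble ectosomes. Between the ectosomes the difference of SERPINB2 did not pass (log2 0.57, SE 1.56, adjusted p = 0.769, edgeR), also without control replicate 3 (adjusted p = 0.101). The SE and p values take in the scatter of the controls, so they do not measure that of the ectosome libraries alone.

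SERPINB10, the bomapin gene next to SERPINB2, had 20, 18 and 15 counts with PKM2-knockdown ectosomes (0.871 ± 0.10 CPM), 4, 6 and 2 counts with scramble ectosomes (0.197 ± 0.111 CPM), and 122, 195 and 900 counts in control cells. Its controls had 6.5, 8.39 and 49.7 CPM, and replicate 3 was again the high one, at 6.67 times the mean of the others. The difference from control was 24.4-fold lower with PKM2-knockdown ectosomes (log2 -4.61) and 107-fold lower with scramble ectosomes (log2 -6.74). Without control replicate 3 these were 8.55-fold and 37.5-fold lower. Every library given PKM2-knockdown ectosomes was above every library given scramble ectosomes, at a fitted 4.39-fold (log2 2.13, SE 1.39, adjusted p = 0.202, edgeR). The SE and p of this difference also take in the scatter of the controls. That difference passed without control replicate 3 (adjusted p = 1.17e-04), with only those 2 groups fitted (1.86e-04) and by DESeq2 (0.0425). The scramble libraries had a part in the choice of SERPINB10, so nothing is read from these passes. SERPINB2 and SERPINB10 overlap by 547 exon bases on the same strand, which is 19.9% of the exon bases of SERPINB2 and 20.3% of those of SERPINB10, so their counts are not wholly separate.

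SERPINB8, the furin inhibitor, fell with PKM2-knockdown ectosomes. It had 38.5, 40.3 and 41.7 CPM with PKM2-knockdown ectosomes, 93.7, 94.4 and 97.1 CPM with scramble ectosomes, and 68.5, 69.6 and 189 CPM in control cells. The libraries given PKM2-knockdown ectosomes were below all 6 others, and the scramble libraries lay between the controls 1 and 2 and control 3. SERPINB8 fell 2.36-fold against scramble ectosomes (log2 -1.24, SE 0.32, adjusted p = 0.00654, edgeR) and 2.71-fold against control (log2 -1.44, SE 0.33, adjusted p = 0.00344); without control replicate 3 the second fall was 1.72-fold (adjusted p = 3.04e-09). With scramble ectosomes the difference from control was -0.20 on the log2 scale (SE 0.32, adjusted p = 0.60). Without control replicate 3 its direction turned and it passed, at 1.37-fold higher (log2 0.46, adjusted p = 2.08e-06). SERPINB8 shares 370 of its exon bases (6.31%) with HMSD on the same strand and 257 (4.38%) with an antisense gene, and no source used here gives the strand setting of the counting.

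The clade had 8 rows in the table, and the other two were SERPINB7 and SERPINB13. SERPINB7, known as megsin, lies upstream of SERPINB2 at chr18:63752935-63805376. It had 5, 5 and 8 counts with PKM2-knockdown ectosomes, 221, 163 and 187 counts with scramble ectosomes, and 0 in each control library. Set against 3 counts over the control group in place of 0, it was 5.93-fold higher with PKM2-knockdown ectosomes (adjusted p = 6.55e-04, edgeR). With scramble ectosomes it was 184-fold higher on the same terms (adjusted p = 1.17e-07). These folds leave out counting error, and each adjusted p is of the fit to the counts themselves. Between the ectosomes SERPINB7 fell 30.3-fold with PKM2 knockdown (log2 -4.92, SE 0.25, adjusted p = 6.82e-07). SERPINB7 and SERPINB2, neighbours on the same strand, thus had opposite orders of scramble ectosomes and control. SERPINB13 had 3 counts in all with PKM2-knockdown ectosomes, 1 with scramble ectosomes and 4 in control cells, and was not tested. SERPINB3, SERPINB4, SERPINB5, SERPINB11 and SERPINB12 are not analysed here.

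Genes that flank the clusters were set beside the members. The background over all rows tested was 31.4% higher and 30.3% lower between the ectosomes. Against control it was 27% higher and 26.7% lower with PKM2-knockdown ectosomes, and 34.6% higher and 33.2% lower with scramble ectosomes. Of 7 on chromosome 6, SERPINB9P1 among them, 3 rose and 2 fell with PKM2-knockdown over scramble ectosomes, with a median log2 fold change of -0.04. Over control 5 rose, 0 fell and 2 did not pass with PKM2-knockdown ectosomes, and 4 rose, 2 fell (MYLK4, BPHL) and 1 did not pass with scramble ectosomes. BPHL, 1 of the 5, no longer passed with DESeq2 (adjusted p = 0.0588), with no low-count filter (0.0635), with the replicate block (0.0511), or without control replicate 2 or any 1 of the PKM2-knockdown libraries (0.0576 to 0.0790). NQO2, a quinone reductase next to SERPINB6, had 61.7 ± 0.535 CPM with PKM2-knockdown ectosomes, 63.6 ± 3.42 CPM with scramble ectosomes and 20.7 ± 2.73 CPM in control cells. It rose over control 2.97-fold with the PKM2-knockdown ones (adjusted p = 6.04e-07, edgeR) and 3.06-fold with the scramble ones (adjusted p = 1.63e-07). WRNIP1, beside SERPINB1, passed no comparison with all libraries and TMM (log2 -0.05 between the ectosomes, and over control -0.17 with PKM2-knockdown ectosomes and -0.12 with scramble ectosomes). It passed against control with PKM2-knockdown ectosomes without control replicate 3 (log2 -0.21, adjusted p = 0.0285), and with scramble ectosomes under library totals (log2 -0.33, adjusted p = 0.00445). Of 5 flanking genes on chromosome 18, 0 rose and 3 fell with PKM2-knockdown against scramble ectosomes, with a median log2 fold change of -0.24. Without control replicate 3, 2 rose and 3 fell, and 13617 of all rows then passed, beside 11365 with it. KDSR, 1 of the 3 that fell with all libraries, no longer passed with library totals (adjusted p = 0.509, edgeR) or with no low-count filter (0.0992). Nor did it pass without any 1 of the scramble libraries (0.0659 to 0.0776), or without PKM2-knockdown replicate 1 (0.0895) or 2 (0.125). Against control, 0 rose and 3 fell with PKM2-knockdown ectosomes, and 1 rose and 2 fell with scramble ectosomes. BCL2, the inhibitor of cell death, had 41.2 ± 2.0 CPM with PKM2-knockdown ectosomes, 34.8 ± 0.768 CPM with scramble ectosomes and 236 ± 39.1 CPM in control cells. Against control it fell 5.74-fold with PKM2-knockdown ectosomes (adjusted p = 6.20e-08) and 6.80-fold with scramble ectosomes (adjusted p = 1.13e-08). VPS4B, nearer to the serpins, had 69.8 ± 4.99 CPM with PKM2-knockdown ectosomes, 91.3 ± 1.31 CPM with scramble ectosomes and 72.5 ± 1.19 CPM in control cells. HMSD, which overlaps SERPINB8, had 29 counts in all with PKM2-knockdown ectosomes, 12 with scramble ectosomes and 108 in control cells.

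**Figure D3:**
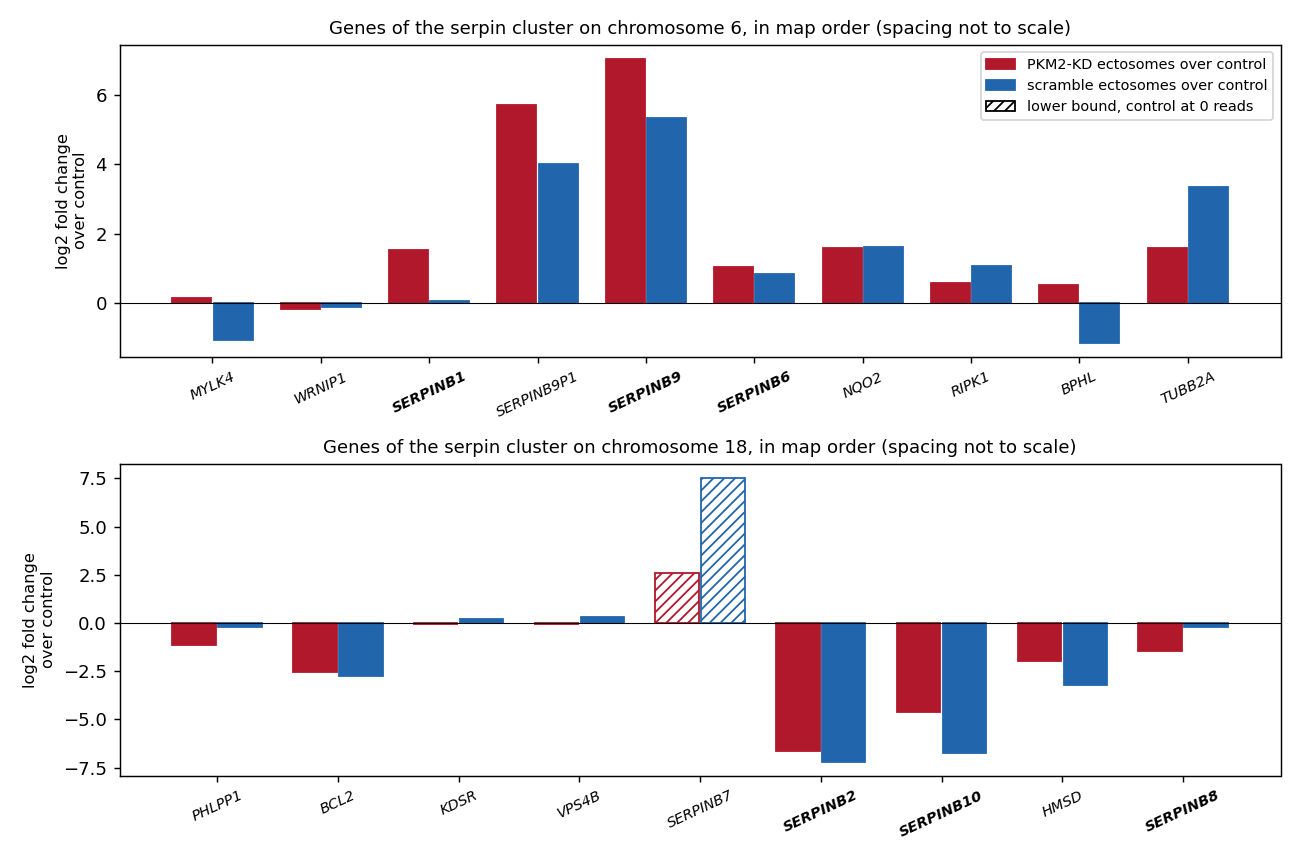
Log2 fold change over control (vertical axis) for genes of both serpin clusters in map order, with PKM2-knockdown ectosomes (red, left bar) and scramble ectosomes (blue, right bar); members are in bold, hatched bars are lower bounds, and SERPINB9 and SERPINB9P1 are ratios of counts. On chromosome 18, SERPINB7 stands above 0 and SERPINB2 and SERPINB10 far below it; on chromosome 6, SERPINB9 and SERPINB9P1 have the tallest bars.

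The proteases that these serpins are known to inhibit, with their receptors and relatives, had 11 rows and 10 tested. Between PKM2-knockdown and scramble ectosomes 4 rose (ELANE, PRTN3, AZU1, CASP1), 2 fell (PLAU, FURIN) and 4 did not pass; without control replicate 3 all 10 passed, 6 higher and 4 lower, but 13617 of all rows then passed, beside 11365 with it. Against control 6 rose and 4 fell with either kind of ectosome, the comparisons sharing the control libraries. Of all rows tested, 31.4% were higher and 30.3% lower between the ectosomes. Against control 27% were higher and 26.7% lower with PKM2-knockdown ectosomes, and 34.6% higher and 33.2% lower with scramble ectosomes. The median log2 fold change of the 10 was 0.36 between the ectosomes, beside 0.03 for all rows tested. The 4 that fell against control were the granule genes ELANE, CTSG, PRTN3 and AZU1, the last of which encodes azurocidin, a relative without protease activity.

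ELANE, neutrophil elastase and a target of SERPINB1, had 76.5, 84.9 and 88.6 CPM with PKM2-knockdown ectosomes, 46.8, 47.5 and 55.4 CPM with scramble ectosomes, and 380, 460 and 633 CPM in control cells. It fell 5.89-fold against control with PKM2-knockdown ectosomes (adjusted p = 8.09e-07) and 9.84-fold with scramble ectosomes (adjusted p = 5.77e-08, edgeR). CTSG, cathepsin G, had 38.9 ± 4.23 CPM with PKM2-knockdown ectosomes, 30.0 ± 2.17 CPM with scramble ectosomes and 731 ± 378 CPM in control cells. PRTN3, proteinase 3, had 32.0 ± 3.54 CPM with PKM2-knockdown ectosomes, 14.2 ± 1.52 CPM with scramble ectosomes and 338 ± 142 CPM in control cells. Thus SERPINB1 RNA was highest in the group with PKM2-knockdown ectosomes, and RNA of its 3 granule targets was highest in control cells. Control replicate 3 was the highest control for each of these 3 targets, at 1.5 to 2.27 times the mean of the others, as it was for SERPINB1.

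PLAU, the urokinase that SERPINB2 inhibits, had 34.0, 35.9 and 36.4 CPM with PKM2-knockdown ectosomes, 71.8, 75.5 and 78.9 CPM with scramble ectosomes, and 19.4, 19.7 and 26.2 CPM in control cells. It rose 1.63-fold over control with PKM2-knockdown ectosomes (adjusted p = 3.90e-04) and 3.47-fold with scramble ectosomes (adjusted p = 2.11e-07), while the RNA of its inhibitor stood under 1 CPM. PLAUR, the urokinase receptor, had 432 ± 9.16 CPM with PKM2-knockdown ectosomes, 340 ± 14.9 CPM with scramble ectosomes and 38.9 ± 18.5 CPM in control cells, and rose over control 11.1-fold with PKM2-knockdown ectosomes (adjusted p = 6.90e-06) and 8.71-fold with scramble ectosomes (adjusted p = 5.73e-06). FURIN, the target of SERPINB8, had 178 ± 7.97 CPM with PKM2-knockdown ectosomes, 275 ± 6.07 CPM with scramble ectosomes and 93.5 ± 19.3 CPM in control cells; both FURIN and SERPINB8 fell with PKM2-knockdown against scramble ectosomes (FURIN 1.54-fold, adjusted p = 0.00145). CASP1, the inflammatory caspase whose activation SERPINB1 is reported to restrain, had 139 ± 4.59 CPM with PKM2-knockdown ectosomes, 86.2 ± 4.17 CPM with scramble ectosomes and 34.5 ± 1.94 CPM in control cells. It rose 1.62-fold with PKM2-knockdown over scramble ectosomes (adjusted p = 1.61e-05), as SERPINB1 did. GZMB, granzyme B, had 3 counts in all with PKM2-knockdown ectosomes, 2 with scramble ectosomes and 3 in control cells, and was not tested; it is the known target of SERPINB9.

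**Figure D4:**
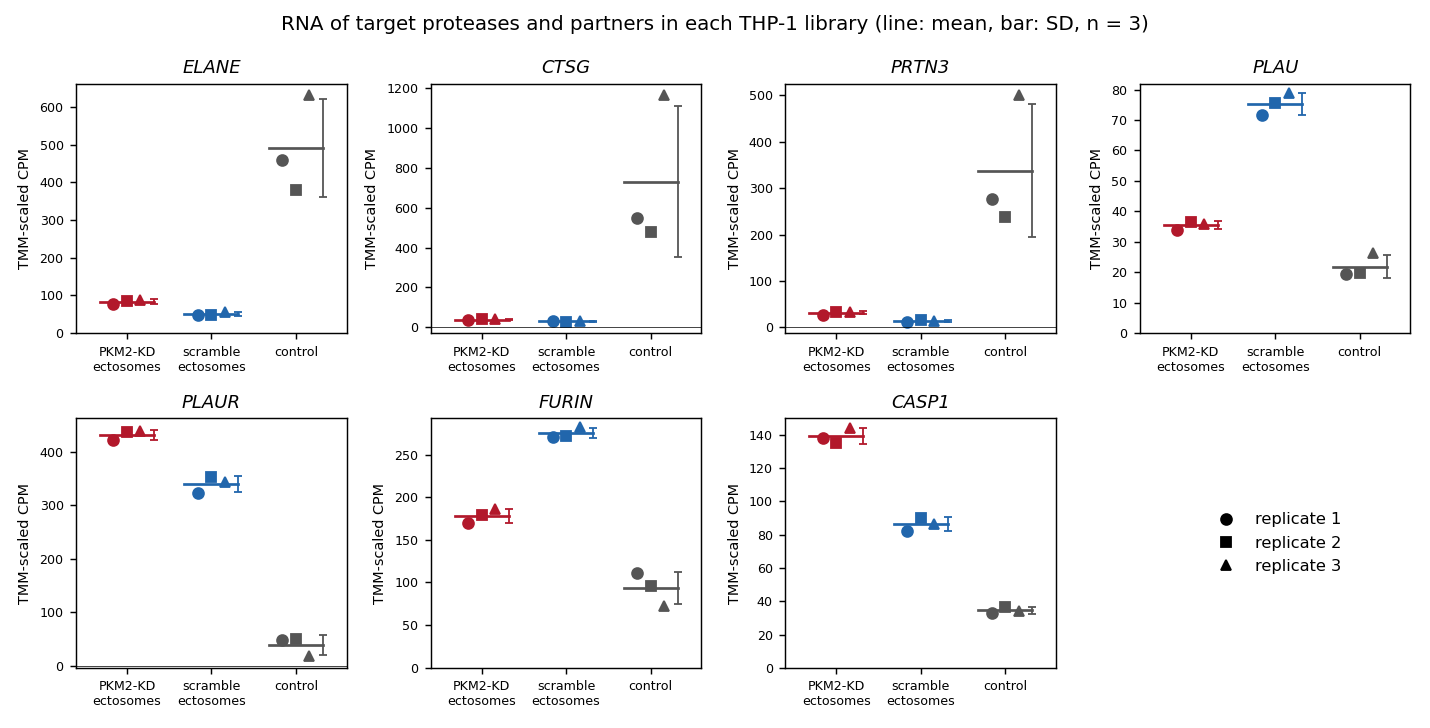
TMM-scaled CPM of target proteases and the urokinase receptor in each library, with groups on the horizontal axis and a vertical scale of its own for each gene; points are libraries, lines means and bars SDs (n = 3). ELANE, CTSG and PRTN3 are high in control cells, PLAU and FURIN are highest with scramble ectosomes, and PLAUR and CASP1 are highest with PKM2-knockdown ectosomes.

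The patterns most like each member were taken over the 9 libraries, by Pearson r on log2(CPM + 0.5), among 11097 genes with a mean of at least 5 CPM. As the libraries form groups, r is a description of shape only. PKIB (r = 0.996) and DOK3 (0.990) were most like SERPINB1, and PKIB had 33.4, 8.38 and 9.02 CPM in cells given PKM2-knockdown ectosomes, cells given scramble ectosomes and control cells. NOTCH1 and GPRIN3 (0.996 each) were most like SERPINB9, and GPRIN3 had 65.2, 8.91 and 0.175 CPM in those groups. SBNO2 and ID2 (0.997 each) were most like SERPINB6. PLK4 and PCID2 (0.996 each) were most like SERPINB2 in shape but changed far less, PLK4 having 34.8, 33.6 and 64.4 CPM in those groups. EMB (0.997) and NUP107 (0.996) were most like SERPINB10. EMB had 195 CPM with PKM2-knockdown ectosomes, 129 CPM with scramble ectosomes and 936 CPM in control cells. NUP107 had 53.1, 44.3 and 93.6 CPM in the same groups, also a smaller change than that of SERPINB10. CLINT1 and ZNF639 (0.993 each) were most like SERPINB8.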

How the data were processed

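The members and gene lists were chosen with earlier results of these data known. The authors deposited 1 table of raw counts per gene symbol for the 9 libraries; per the submitters' processing notes it was made with HISAT2 2.0.5 and featureCounts 1.5.0-p3 on GRCh38/hg38. Per the labels, RNA was extracted with Trizol. No source used here gives the annotation release, strand setting or row filter; the lowest row total was 4 counts. Of the 30000 rows, 355 repeat an earlier symbol, and the first row of a symbol was used. Counts were tested with edgeR 4.0.16 in R 4.3.3 (filterByExpr by group, which kept 18437 rows, TMM, 1 quasi-likelihood model over all 9 libraries with group as its only term, 6 residual degrees of freedom), two-sided, with Benjamini-Hochberg adjustment over every tested row and a threshold of 0.05; each adjusted p in the text is of this test unless another tool is named. SE is the size of the log2 fold change over the root of its F statistic. The steps were tested on simulated counts. Alternatives were RLE factors, library totals, DESeq2 1.42.0, no or a stricter low-count filter (1 CPM in 3 libraries), 2-group fits, a replicate block and leaving out each library; list counts without control replicate 3 were added after seeing the data. Genes named were the members, fixed lists, up to 3 other serpins of smallest p per comparison, and the 2 likest genes. Coordinates and exon lengths are of GENCODE release 29, promoter sequences of RefSeq.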

Additional observations from a re-analysis of the deposited data

How the results depend on the processing

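Of 1622 alternative values of named genes, 1548 kept their direction and their side of the threshold. Another 33 newly passed, 26 no longer passed and 15 reversed. For the 6 members 272 of 285 were kept, a count that includes SERPINB2 and SERPINB10, the pair chosen on these data. DESeq2 gave no adjusted p for SERPINB2 in any of the 3 comparisons, and these 3 values are left out of the counts. Between PKM2-knockdown and scramble ectosomes the count of members called was 3, and 5 with only the 2 groups compared. Leaving out single libraries gave 3 to 5, with 5 without control replicate 3. SERPINB6 and SERPINB10 were the added members in both settings, and the scramble libraries had a part in the choice of SERPINB10. The rows called there were 11365, with 13138 when only the 2 groups were compared and 13617 without control replicate 3. Library totals in place of TMM moved the median log2 fold change of all rows to 0.20 between the ectosomes and to -0.21 for scramble ectosomes over control; the share of calls that were higher was then 62.0% and 40.2%, beside 50.9% and 51.0% with TMM. Under library totals, reversals were SERPINB1 (-0.14) and the flanking gene KDSR (-0.019) for scramble ectosomes over control, and the caspase gene CASP4 (0.0096), WRNIP1 (0.12) and NQO2 (0.13) between the ectosomes. Leaving out single libraries gave log2 ranges that cross 0 for scramble ectosomes over control in SERPINB1 (-0.14 to 0.52) and SERPINB8 (-0.44 to 0.46), and for PKM2-knockdown ectosomes over control in SERPINE2 (-0.39 to 0.25), KDSR (-0.10 to 0.0012) and the flanking gene MYLK4 (-0.0074 to 0.36). The cause of these reversals was not tested.

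Same-numbered libraries correlated at -0.222 to 0.204, with 2 of 9 pairs over 0.1, so the numbers were not taken to pair the libraries. With the replicate block, 11035 rows were called between the ectosomes (11365 without it), and 3 members were called with it as without it; SERPINE2 reversed to 0.041 for PKM2-knockdown ectosomes over control.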

Other observations

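Serpins of other clades, most of them secreted inhibitors, had 14 rows, of which 10 were tested. Between PKM2-knockdown and scramble ectosomes 5 rose, 1 fell and 4 did not pass in edgeR's quasi-likelihood test. Of all rows tested, 31.4% were higher and 30.3% lower. Without control replicate 3, 5 rose and 4 fell, and 13617 of all rows then passed, beside 11365 with it. Their median log2 fold change was 0.81, beside 0.03 for all rows tested. SERPINA1, the antitrypsin of plasma, had 34.6, 36.1 and 41.5 CPM with PKM2-knockdown ectosomes, 2.98, 3.69 and 3.93 CPM with scramble ectosomes, and 0.552, 1.70 and 3.79 CPM in control cells, and rose 10.6-fold between the ectosomes (adjusted p = 1.85e-05). SERPING1, the inhibitor of complement C1, had 99 counts in all with PKM2-knockdown ectosomes, 8 with scramble ectosomes and 20 in control cells, and rose 12.1-fold between the ectosomes (adjusted p = 2.96e-05). SERPINF1, pigment epithelium-derived factor, had 199.8 ± 10.7 CPM with PKM2-knockdown ectosomes, 73.2 ± 4.36 CPM with scramble ectosomes and 168 ± 38.6 CPM in control cells, and rose 2.73-fold between the ectosomes (adjusted p = 1.17e-05).

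SERPINE2, protease nexin, an inhibitor of thrombin and urokinase, had 15.7, 15.8 and 18.1 CPM with PKM2-knockdown ectosomes, 103, 106 and 111 CPM with scramble ectosomes, and 6.85, 20.8 and 22.4 CPM in control cells, and fell 6.44-fold between the ectosomes (adjusted p = 3.15e-05, edgeR). SERPINE2 and SERPINB7 were both highest in the libraries given scramble ectosomes. SERPINI2, known as pancpin, was highest in control cells, with 1.31 ± 0.363 CPM with PKM2-knockdown ectosomes, 0.557 ± 0.183 CPM with scramble ectosomes and 14.3 ± 1.70 CPM in control cells. Against control it fell 10.9-fold with PKM2-knockdown ectosomes (adjusted p = 7.22e-07) and 25.2-fold with scramble ectosomes (adjusted p = 6.71e-08).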
